A study of Homo sapiens with 18 samples.

Results

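THP1 is an acute myeloid leukaemia cell line of human origin with features of monocytes, and B11 is 1 subclone of it in which the endogenous NRAS locus had been targeted. The genes described here were present in THP1 and low or undetected in B11 at every doxycycline dose. They were chosen from the expression values themselves. A protein-coding gene was taken when its lowest THP1 group mean was at least 5 FPKM (fragments per kilobase of a transcript after scaling for depth, a level per length) and its highest B11 group mean was at most 0.25 of that THP1 value. Of 19687 protein-coding genes in the table, 9017 reached 5 FPKM in every THP1 group, and 36 of these 9017 (0.399%) met both conditions. The mirror rule, with the lines exchanged, chose 10 genes.

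The study held 6 groups of 3 plates, each line at 0, 1 or 10 ug/ml doxycycline, and total RNA was taken after 5 days. THP1 was labelled as heterozygous for NRAS G12D and served as the parental control, with and without the drug. B11 was labelled as heterozygous NRAS G12V. It descends from THP1 cells given a lentiviral, doxycycline-inducible NRAS with the G12V change, which the guides do not cut, together with GFP. Cells positive for GFP under doxycycline were sorted, then received Cas9, puromycin resistance and a pair of guides flanking the NRAS start codon, and puromycin was used to select subclones. The drug thus switches the NRAS transgene on in B11 and is a drug-only control in THP1. B11 is 1 clone, so effects of the editing, the vectors, the selection and the founder cell cannot be told apart in any difference between the lines. The plates were split from 1 culture per line, and a p-value measures the spread between these plates only.

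NRAS is a small GTPase that, when active, signals through the RAF, MEK and ERK kinases and other effectors, and myeloid leukaemias often carry activating NRAS mutations. Because the genes were required to be low in B11 with the transgene off and on, their low level at every dose on day 5 is by construction. Whether NRAS had a part in that level was not tested. The genes belong to no single pathway. Monocytes and macrophages are known for the lipid-handling, secreted and antimicrobial products that several of them encode, such as LPL, SPP1, MMP9, S100A12 and C1QA.

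Promoter sequence was not used by the rule and is shown first, because promoters with few CpG dinucleotides were common among these genes. RefSeq promoters (GRCh38.p14) were at hand for 26 of the 36 genes and for 7274 of the 9017 genes at 5 FPKM or more in THP1. The window was the 250 bases before the annotated start. The median ratio of observed to expected CpG was 0.393 in the 26 and 0.842 in the 7274, and the median GC content was 54.6% and 65.2%. A ratio under 0.4, a threshold set after the sequences had been viewed, was found in 13 of 26 genes and in 8.47% of the 7274. Genes at a lower level in THP1 (under 20 FPKM in the lowest group mean) gave 9.75%. Restricting both sets to entries within 1000 bases of the GENCODE start left 10 of 22 genes (45.5%) and 7.11%, so the difference was also present there. These 2 checks were added after the first result. The following 6 windows, 3 with few CpG and 3 with more, are printed 5′ to 3′ on the strand of the gene, in lower case with each CpG in capitals.

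HSD11B1: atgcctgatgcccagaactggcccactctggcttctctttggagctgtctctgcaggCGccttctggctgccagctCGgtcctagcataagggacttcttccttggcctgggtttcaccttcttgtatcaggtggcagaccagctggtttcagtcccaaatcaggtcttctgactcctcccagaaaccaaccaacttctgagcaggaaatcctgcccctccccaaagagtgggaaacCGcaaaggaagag
S100A12: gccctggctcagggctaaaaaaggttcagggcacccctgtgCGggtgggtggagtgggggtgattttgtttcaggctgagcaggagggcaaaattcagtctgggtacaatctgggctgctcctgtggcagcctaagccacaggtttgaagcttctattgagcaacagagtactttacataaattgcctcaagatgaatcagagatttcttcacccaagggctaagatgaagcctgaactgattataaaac
TMEM176B: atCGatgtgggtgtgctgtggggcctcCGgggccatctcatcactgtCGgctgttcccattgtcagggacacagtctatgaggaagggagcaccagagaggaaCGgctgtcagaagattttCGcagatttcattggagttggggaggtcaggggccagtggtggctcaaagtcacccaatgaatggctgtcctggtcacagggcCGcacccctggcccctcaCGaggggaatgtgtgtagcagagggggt
AGK: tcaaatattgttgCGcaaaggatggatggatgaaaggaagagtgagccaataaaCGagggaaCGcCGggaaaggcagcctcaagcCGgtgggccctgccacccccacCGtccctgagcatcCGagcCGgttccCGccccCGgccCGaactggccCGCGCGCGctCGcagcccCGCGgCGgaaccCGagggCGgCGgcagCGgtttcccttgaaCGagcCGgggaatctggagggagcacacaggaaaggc
ZNF662: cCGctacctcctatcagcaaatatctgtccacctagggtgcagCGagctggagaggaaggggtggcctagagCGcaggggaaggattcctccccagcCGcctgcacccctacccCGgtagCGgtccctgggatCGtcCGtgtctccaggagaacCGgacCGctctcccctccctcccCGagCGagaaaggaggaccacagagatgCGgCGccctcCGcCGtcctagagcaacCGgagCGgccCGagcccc
CTSF: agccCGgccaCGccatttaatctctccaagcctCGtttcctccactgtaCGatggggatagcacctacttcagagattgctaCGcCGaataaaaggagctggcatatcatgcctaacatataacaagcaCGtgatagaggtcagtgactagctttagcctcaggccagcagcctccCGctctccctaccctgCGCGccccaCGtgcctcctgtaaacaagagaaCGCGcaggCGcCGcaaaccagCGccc

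The CpG-poor windows belong to HSD11B1 (chr1:209685929-209686178, plus strand, observed over expected 0.160), S100A12 (chr1:153375622-153375871, minus strand, 0.0681) and TMEM176B (chr7:150801361-150801610, minus strand, 0.339). The windows with more CpG belong to AGK (chr7:141551160-141551409, plus strand, 0.908), ZNF662 (chr3:42905892-42906141, plus strand, 0.681) and CTSF (chr11:66568607-66568856, minus strand, 0.846). ZNF662 and CTSF were among the genes nearest to 0 in B11, so a low level in B11 occurred with both kinds of window. In all, 3 motifs of factors active in myeloid cells or downstream of ERK were searched on both strands of the 26 windows. TGANTCA, the AP-1 site, was in 1 of 26 (S100A12) and in 4.96% of 14803 promoters of the same length. GAGGAA, the PU.1 core, was in 5 of 26 and in 23.5%, and TTGCNNAA, a C/EBP site, in 3 of 26 (S100A12, AGK and C1QA) and in 7.12%. No motif contains another, and a match describes the sequence only.

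**Figure D1:**
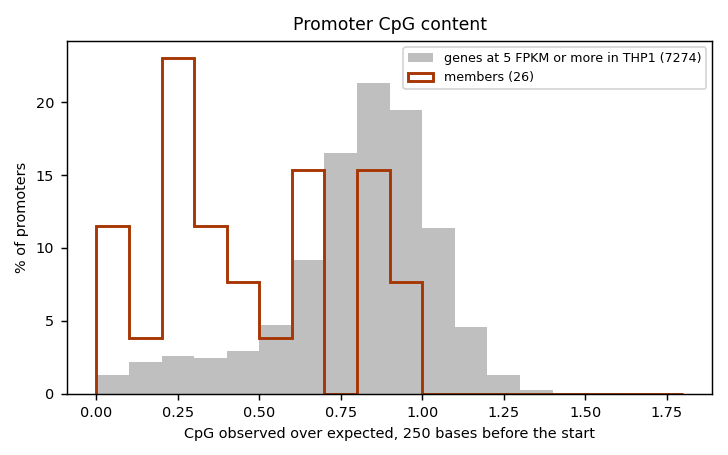
Distribution of the ratio of observed to expected CpG (x axis) as a percentage of promoters (y axis) for the 26 genes with a RefSeq window (outline) and the 7274 expressed genes with one (grey). Of the outlined genes 13 of 26 lie under 0.4, against 8.47% of the grey ones.

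Depth was estimated from the steps of low values at 10.3 to 14.7 M fragments per library, and Pearson's r between replicates across genes was 0.938 to 0.957. NRAS, the targeted gene, averaged 23.3, 23.4 and 24.2 FPKM in THP1 and 20.9, 23.8 and 28 in B11 at 0, 1 and 10 ug/ml. A gene total includes any transcript of the transgene that aligned to NRAS and does not separate it from the endogenous gene, so it is no check of the edit. Of 25 monocyte markers, 20 reached 5 FPKM in every THP1 group, and SPI1, CEBPA, LYZ, CD68 and CD33 were well above it in both lines. Other markers of the 20 were far below it in a B11 group. CD14 averaged 0.841 FPKM in untreated B11, and CYBB, CD36 and S100A8 averaged 0.838, 0.704 and 2.77 at 10 ug/ml. Of 43 markers of T, B, erythroid, megakaryocytic, epithelial and fibroblast cells, 29 stayed below 1 FPKM in all 18 libraries, CD3E, MS4A1, HBB, PF4, KRT5 and DCN at or near 0. The rest did not, such as EPOR (group means 7.23 to 10.8 FPKM), ITGA2B (7.93 in untreated B11) and GP9 (5.40 in untreated THP1). In bulk RNA, fewer cells expressing a gene and less RNA per cell cannot be told apart. In the 1 ug/ml B11 group, libraries B and C stood apart in 1 Ensembl ID without a gene name, at 76850 and 42501 FPKM (6.51% and 3.76% of the sum) and 0 elsewhere. Without these libraries the rule chose 33 genes, 32 of them among the 36.

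All 36 genes had every B11 library below every THP1 library, which the rule nearly fixes; among the 9017 expressed genes this held for 7.97%. The lowest THP1 group mean was 30 FPKM or more for 6 genes, 10 to 30 for 11 and under 10 for 19. The highest B11 group mean was 1 FPKM or more for 23 genes and under 1 for 13, and 10 genes were below 1 FPKM in all 9 B11 libraries. For 8 genes (CTSF, ZNF662, MAGED1, TMEM176B, SV2A, MMP9, CEACAM6 and CALHM6) the B11 value was under 0.05 of the THP1 value. The highest B11 group was the one at 0 ug/ml for 9 genes, at 1 ug/ml for 18 and at 10 ug/ml for 8, and CTSF was listed at 0 in all 3. Just inside the ratio threshold lay TMEM229B (0.249), VCAN (0.238) and FILIP1L (0.236), and just outside lay CLU (0.254), TPM1 (0.259) and C3orf80 (0.269). Just inside the level threshold were CTSF (5.03 FPKM), TCEA3 (5.17) and LIPE (5.32), and just outside were VAT1L (4.95), LEF1 (4.52) and PGBD5 (3.83), which met the ratio. The values of the chosen genes in the 2 lines are descriptions and carry no test.

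**Figure D2:**
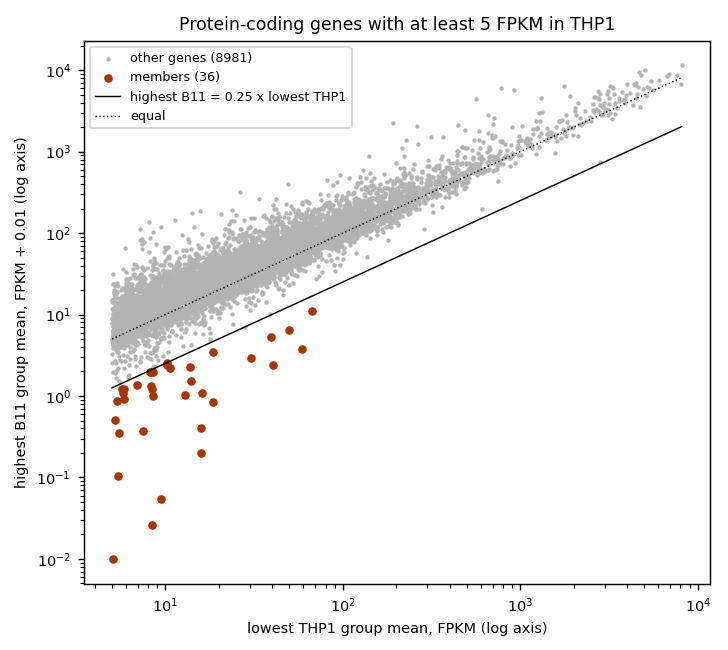
Highest B11 group mean plus 0.01 (y axis, log scale) against lowest THP1 group mean (x axis, log scale), both in FPKM, for the 9017 protein-coding genes at 5 FPKM or more in THP1. The 36 chosen genes (red) lie below the solid line at 0.25 of the THP1 value, from MT1G near the top to CTSF at 0.

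Gene positions are those of GENCODE 29 on GRCh38. Lipid and steroid metabolism supplied 7 of the 36 genes, at a median of 10.8% of the THP1 value. HSD11B1, which regenerates active cortisol from cortisone (ENSG00000117594, chr1:209686178-209734950), was at 36, 46.6 and 45.9 FPKM in untreated THP1 and at 0.447, 0 and 0 in untreated B11. LPL, the lipase that releases fatty acids from lipoproteins (ENSG00000175445, chr8:19901717-19967259), was at 32.2, 39 and 34.8 FPKM in untreated THP1 and 2.02, 0.955 and 0.918 in untreated B11. Both genes were separated from THP1 by a wide gap in all 9 B11 libraries, whose highest values were 2.67 FPKM for HSD11B1 and 4.60 FPKM for LPL. PPARG, the nuclear receptor that drives lipid storage and of which LPL is a known target, ranged over 10.2 to 15.6 FPKM in THP1 and 0.358 to 1.32 in B11. AGK, a mitochondrial lipid kinase, ranged over 11.2 to 22.3 and 0.0960 to 2.33 FPKM. ME3, the mitochondrial NADP-dependent malic enzyme, ranged over 11.6 to 15.6 and 1.12 to 3.0 FPKM. CYP1B1, a cytochrome P450 that oxidises steroids and aromatic hydrocarbons, kept more of its level, 0.822 to 2.54 FPKM in B11 against 8.63 to 18 in THP1. LIPE, hormone-sensitive lipase, was at 3.67 to 9.31 FPKM in THP1 and 0.135 to 1.16 in B11.

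Genes related to these by pathway or family, picked after the values had been seen, differed in how they stood in B11. RXRA, the partner receptor of PPARG, averaged 52.5, 53.9 and 47.4 FPKM in THP1 and 33.8, 35.7 and 40.4 in B11 at 0, 1 and 10 ug/ml. PNPLA2, the lipase acting before LIPE, averaged 156, 97.8 and 102 FPKM in B11 and 71.3, 77.8 and 66.6 in THP1. H6PD, which supplies HSD11B1 with NADPH, averaged 14.9, 10.3 and 12.1 FPKM in B11 and 11, 11.7 and 12.2 in THP1. LIPA, the lysosomal acid lipase, was higher in B11 than in THP1 at each dose, at 57.4, 56.6 and 47.6 against 36.7, 40.0 and 36.2 FPKM. CD36, a fatty acid receptor, averaged 31.9, 10.3 and 0.704 FPKM in B11 against 24.5, 18.4 and 17.6 in THP1, so only its dosed groups were below. FABP4, another known target of PPARG, was low in THP1, with group means of 0.736, 1.07 and 0.761 FPKM, and lower in B11, where 8 of 9 libraries were listed at 0.

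Innate defence supplied 5 genes. S100A12, a secreted calcium-binding protein of phagocytes, was at 25.9, 34.8 and 28.1 FPKM in untreated THP1 and 2.96, 0 and 0.259 in untreated B11. Library A of untreated B11 held most of the S100A12 signal seen in B11, and 4 of the 9 B11 libraries were listed at 0. Its neighbours S100A8 and S100A9 encode the subunits of calprotectin. S100A8 averaged 113, 4.44 and 2.77 FPKM in B11 at 0, 1 and 10 ug/ml, against 417, 388 and 286 in THP1. S100A9 averaged 197, 14.6 and 8.70 FPKM in B11, against 896, 814 and 606 in THP1. They missed the rule because of untreated B11 alone. CEACAM6, a cell-surface adhesion protein of the carcinoembryonic antigen family (ENSG00000086548, chr19:41750977-41772208), ranged over 17.7 to 24.2 FPKM in THP1 and 0.151 to 0.903 in B11. TMEM176B, a membrane protein of myeloid cells, ranged over 14.8 to 26.5 FPKM in THP1, and 5 of 9 B11 libraries were listed at 0, with 0.265 FPKM as the highest. C1QA, a chain of the complement component C1q, ranged over 4.17 to 7.86 and 0 to 1.58 FPKM. Its partner chains C1QB and C1QC were low in both lines and lower in B11, with THP1 group means up to 1.77 FPKM (C1QC). GBP5, an interferon-inducible GTPase, ranged over 3.14 to 7.73 and 0.0891 to 2.47 FPKM, with library A of the 1 ug/ml group standing above the other 8 B11 libraries.

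A further 7 genes were grouped as secreted or matrix proteins, with the lysosomal protease CTSF placed among them. SPP1, osteopontin (ENSG00000118785, chr4:87975650-87983426), was at 140.3, 161 and 121 FPKM in untreated THP1 and 4.86, 0.480 and 0.130 in untreated B11. In B11 it was uneven, from 0.130 to 6.41 FPKM over the 9 libraries. MMP9, a gelatinase that cleaves matrix collagen (ENSG00000100985, chr20:46008908-46016561), was at 29.8, 33.7 and 31.1 FPKM in untreated THP1, and no B11 library exceeded 0.723 FPKM. TIMP1, its inhibitor, averaged 1112, 602 and 601 FPKM in B11 and 550.5, 566 and 499 in THP1, so the inhibitor was not low. VCAN, a matrix proteoglycan of monocytes, ranged over 4.99 to 14.8 FPKM in THP1 and 0.0428 to 3.08 in B11. MUC19, a gel-forming mucin, ranged over 15.3 to 31.1 and 0.460 to 4.17, and SFRP1, a secreted inhibitor of Wnt ligands, over 8.0 to 9.18 and 1.38 to 2.66 FPKM. The 9 B11 values of SFRP1 all lay between 1 and 3 FPKM. CPE, a carboxypeptidase that trims peptide hormones, ranged over 5.62 to 12.4 and 0 to 1.85 FPKM. CTSF, the lysosomal protease cathepsin F (ENSG00000174080, chr11:66563463-66568841), was at 8.08, 6.61 and 3.82 FPKM in untreated THP1, at 9.83, 5.97 and 4.0 with 1 ug/ml and at 4.38, 5.25 and 5.46 with 10 ug/ml. It was listed at 0 in all 9 B11 libraries, so no fold can be given. Cathepsins B, D and L, encoded elsewhere, averaged 345, 386 and 49.1 FPKM in untreated B11 and were close to THP1, at 301, 329 and 57.8.

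Membrane proteins, channels and synaptic proteins accounted for 7 genes. KCNMB1, a regulatory subunit of the calcium-activated potassium channel, ranged over 8.06 to 9.63 FPKM in THP1 and 0.562 to 1.09 in B11, while KCNMA1, the pore subunit, was under 1 FPKM on average in every group of both lines. SLC8A1, a sodium-calcium exchanger, ranged over 6.90 to 13 and 0.193 to 1.30 FPKM. CALHM6, a channel-like protein of immune cells, ranged over 5.90 to 13.7 FPKM in THP1 and was listed at 0 in 5 of 9 B11 libraries, including all 3 untreated ones. CDH2, N-cadherin, ranged over 4.84 to 8.81 and 0.165 to 1.93 FPKM, and GPR27, an orphan receptor, over 4.33 to 7.25 and 0.0730 to 0.362. SV2A, a synaptic vesicle glycoprotein, ranged over 5.09 to 6.99 FPKM in THP1 and 0 to 0.135 in B11. TMEM229B ranged over 8.53 to 15.4 and 0.606 to 3.30 FPKM and sat nearest to the ratio threshold.

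Intracellular adaptors and regulators accounted for 7 genes. MT1G, a metallothionein that binds zinc and copper, had the highest of the lowest THP1 group means, 66.7 FPKM, with 74.8, 72.4 and 58.7 FPKM in untreated THP1 and 0.703, 13.7 and 6.68 in untreated B11. Of the other metallothioneins looked at in the same cluster on chromosome 16, all 4 averaged less in B11 than in THP1 at each dose, and none met the rule. MT1F averaged 44.8, 59.6 and 42.8 FPKM in B11 and 63.2, 62.3 and 66.1 in THP1, and MT1X averaged 31.1, 22.9 and 28.8 FPKM in B11 and 39.8, 29.4 and 38.2 in THP1. MT1E averaged 84.1, 199 and 139.7 FPKM in B11 and 202, 221 and 256 in THP1, and MT2A averaged 34, 87.6 and 57.5 FPKM in B11 and 128, 128 and 121 in THP1, so both were lowest in untreated B11. Members of that family are near-identical in sequence, so reads may have been divided among them. PLEKHO1, a pleckstrin-homology adaptor (ENSG00000023902, chr1:150149183-150164720), was at 54.9, 56.7 and 61.6 FPKM in untreated THP1 and 3.76, 8.02 and 3.88 in untreated B11. TESC, a calcium-binding protein, ranged over 35.1 to 63.2 and 2.22 to 6.65 FPKM. FILIP1L, related to a filamin-interacting protein, ranged over 8.61 to 13.9 and 0.343 to 4.03, SH2D4A, an adaptor with an SH2 domain, over 7.92 to 12.2 and 0.381 to 2.51, and APBB1, which binds the tail of the amyloid precursor protein, over 4.68 to 8.98 and 0.0700 to 1.63 FPKM. MAGED1, an adaptor of the MAGE family on the X chromosome, ranged over 7.90 to 15.4 FPKM in THP1 and 0 to 0.0967 in B11, where its highest group mean was 0.474% of the lowest THP1 one. MAGED2, its paralogue, averaged 56.4, 57.9 and 68.5 FPKM in B11 and 67.8, 73.3 and 71.9 in THP1.

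The remaining genes are ZNF662, a zinc-finger protein, ANKRD18A, an ankyrin-repeat protein, and TCEA3, a transcription elongation factor. ZNF662 (ENSG00000182983, chr3:42905731-42917641) was at 17.1, 5.20 and 3.35 FPKM in untreated THP1, at 11, 4.56 and 18.7 with 1 ug/ml and at 4.85, 9.24 and 11.1 with 10 ug/ml. It was uneven over the THP1 plates of each dose, and no B11 library exceeded 0.0473 FPKM. ANKRD18A ranged over 3.96 to 11.3 and 0 to 2.77 FPKM, and TCEA3 over 4.08 to 6.86 and 0 to 0.797. Over the 36 genes the median coefficient of variation between THP1 plates (the middle of the 3 group values) was 16.4%, against 10.3% for the 9017 expressed genes, whose median level was higher (25.5 against 8.99 FPKM).

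**Figure D3:**
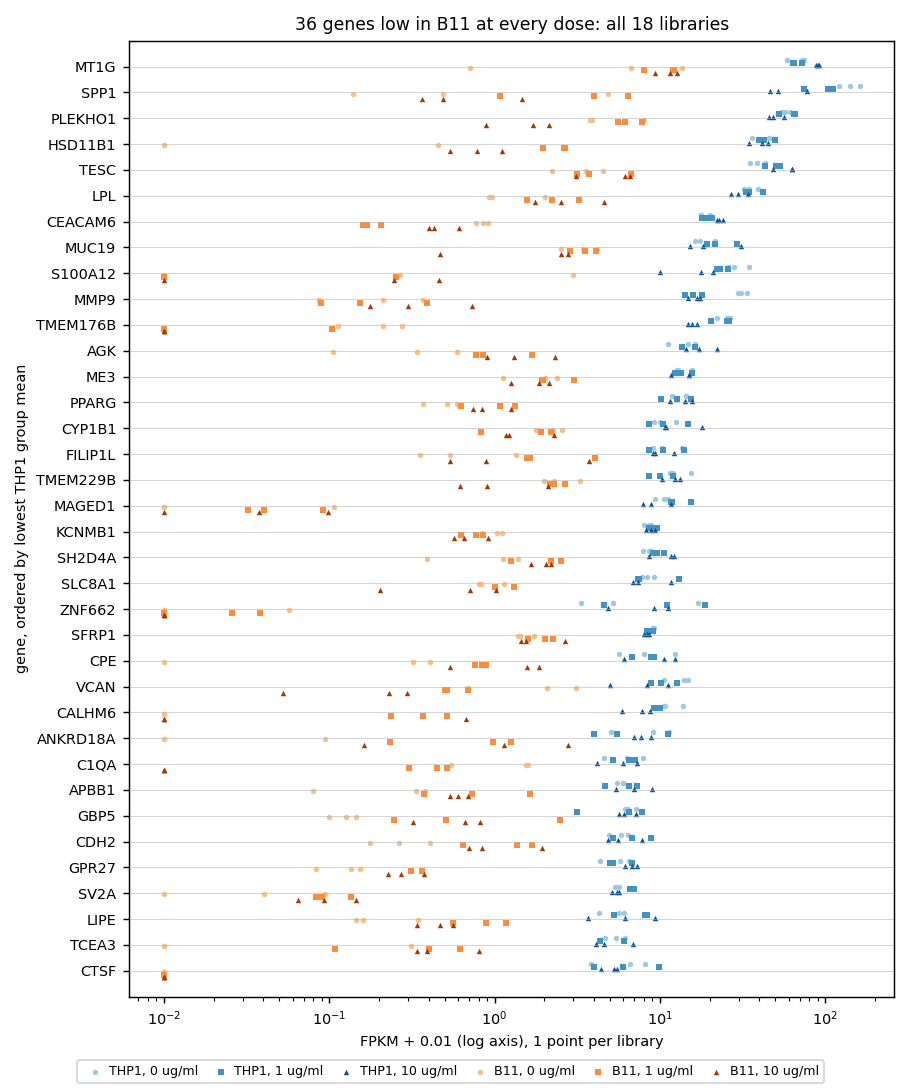
FPKM plus 0.01 (x axis, log scale) of each of the 36 genes (y axis, ordered by lowest THP1 group mean) in all 18 libraries, 1 point each; blue is THP1 and orange to brown is B11, with the shape giving the dose. For every gene the orange and brown points lie to the left of the blue ones, and CTSF sits at the left edge in all 9 B11 libraries.

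The dose comparisons within a line were not used to choose the genes, except that the rule bounds them: a gene raised in B11 past 0.25 of its THP1 value would not be on the list. Genes near 0 in B11 also have little room on the log2(FPKM + 1) scale, so counts are given again for the 23 genes that reached 1 FPKM in a B11 group. Some of them did so only in a dosed group, such as CDH2 (0.272, 1.23 and 1.15 FPKM at 0, 1 and 10 ug/ml) and GBP5 (0.114, 1.07 and 0.589). This choice used the same B11 values and can raise the counts and medians of rises over the 23. Doses were tested with limma across all 17555 genes at 1 FPKM or more in at least 3 libraries, with Benjamini-Hochberg adjustment over all of them, and called at an adjusted p under 0.05. All 36 genes passed this filter, through their THP1 libraries. Differences are on the log2(FPKM + 1) scale, which understates changes of low genes. Where libraries of 2 groups are said not to overlap, this describes the values only. The share of all genes without such overlap is not given here.

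In B11 at 10 against 0 ug/ml, 6 of the 36 genes rose and 5 fell, beside 21.6% of all genes tested that rose and 21.3% that fell. The shares of the list, 16.7% and 13.9%, were slightly below this background, in a list this small and with rises bounded by the rule. With a pseudocount of 0.1, 11 rose and 6 fell. The share of all genes at that setting is not given, so nothing is read from these counts. Among the 23 genes at 1 FPKM or more, 6 rose and 4 fell. The median difference was 0.18 over the 36 genes, 0.38 over the 23 and -0.02 over all genes tested. The value of the 23 is open to the effect of their selection named above.

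Those that rose were 3 metabolic genes and 3 others. AGK went from 0.331, 0.0960 and 0.584 FPKM at 0 ug/ml to 2.33, 0.893 and 1.31 at 10 ug/ml, a difference of 0.88 (SE 0.24, adjusted p = 0.00712), with no overlap between the groups. HSD11B1 went from 0.447, 0 and 0 to 1.10, 0.524 and 0.771 FPKM (difference 0.66, SE 0.18, adjusted p = 0.00786), also without overlap. LPL went from 2.02, 0.955 and 0.918 to 1.74, 2.52 and 4.60 FPKM (difference 0.75, SE 0.25, adjusted p = 0.0241), with 1 untreated library above the lowest dosed one. The levels reached were still small beside THP1: group means at 10 ug/ml of 1.51 ± 0.737 FPKM for AGK, 0.797 ± 0.287 for HSD11B1 and 2.95 ± 1.48 for LPL (SD, n = 3), against 18 ± 3.97, 40.4 ± 5.52 and 30.3 ± 3.60 in THP1 at the same dose. The LPL call was lost when library B or C at 0 ug/ml or library C at 10 ug/ml was left out (adjusted p up to 0.133 in limma).

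CPE, the peptide-hormone carboxypeptidase, differed by 0.87 (SE 0.29, adjusted p = 0.0271) between 10 and 0 ug/ml in B11, from 0.397, 0.312 and 0 to 1.55, 0.527 and 1.85 FPKM. CDH2 differed by 0.72 (SE 0.25, adjusted p = 0.0314), from 0.396, 0.255 and 0.165 to 1.93, 0.826 and 0.689 FPKM, and SH2D4A by 0.62 (SE 0.21, adjusted p = 0.0262), from 0.381, 1.12 and 1.38 to 1.64, 2.18 and 2.03 FPKM. All 3 showed no overlap between untreated and dosed libraries, for which no share of all genes is given. Their calls were lost without some single libraries: CPE without C of 0 ug/ml, A or C of 10 ug/ml (adjusted p up to 0.113), CDH2 without B or C of 0 ug/ml or A of 10 ug/ml (up to 0.157), and SH2D4A without A of 0 ug/ml or B or C of 10 ug/ml (up to 0.135, all limma). AGK and HSD11B1 kept their calls in all 13 alternatives that gave them a value. A fit of only the groups compared gave them none, since both fell below its filter.

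Of the 5 genes that fell, 3 were PLEKHO1, an adaptor, and C1QA and VCAN, a complement chain and a matrix proteoglycan of monocytes. PLEKHO1 went from 3.76, 8.02 and 3.88 FPKM at 0 ug/ml to 1.69, 2.11 and 0.880 at 10 ug/ml (difference -1.24, SE 0.23, adjusted p = 0.000412). C1QA went from 1.55, 0.532 and 1.58 to 0 in each of the 3 libraries (difference -1.11, SE 0.23, adjusted p = 0.00119). VCAN went from 2.07, 0.685 and 3.08 to 0.0428, 0.220 and 0.284 FPKM (difference -1.23, SE 0.29, adjusted p = 0.00339). None of the 3 overlapped between doses. PLEKHO1 kept its call in all 14 alternatives. C1QA and VCAN kept theirs in the 13 that gave a value. They fell below the filter when only these 2 groups were fitted, so that check could not be made for them. TMEM229B differed by -0.72 (SE 0.22, adjusted p = 0.0159) with 1 dosed library inside the untreated range (2.28, 1.99 and 3.30 against 2.09, 0.606 and 0.889 FPKM), and CEACAM6 by -0.32 (SE 0.11, adjusted p = 0.0242) (0.764, 0.846 and 0.903 against 0.418, 0.393 and 0.603 FPKM) without overlap. The TMEM229B call was lost without C of 0 ug/ml or B or C of 10 ug/ml (adjusted p up to 0.0841), and the CEACAM6 call without C of 0 ug/ml or A or B of 10 ug/ml (up to 0.0786, both limma). With only these 2 groups in the fit, 4 of the 11 called genes passed the filter; PLEKHO1 was called (adjusted p = 0.0213) and LPL, SH2D4A and TMEM229B were not (0.0888 to 0.108).

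At 1 against 0 ug/ml in B11, 4 of 36 genes rose and 3 fell, beside a background of 19.8% and 17.3% of all genes tested. This comparison shares its untreated libraries with the one at 10 ug/ml. Over the 23 genes at 1 FPKM or more, 4 rose and 2 fell, and the median difference was 0.28 over the 36 genes, 0.42 over the 23 and -0.01 over all genes. The same effect of selection can raise the value of the 23. HSD11B1 had the largest difference, 1.59 (SE 0.18, adjusted p = 5.20e-06), with 2.67, 2.64 and 1.96 FPKM at 1 ug/ml against 0.447, 0 and 0 at 0 ug/ml. Every dosed library lay above every untreated one, yet the group mean of 2.42 ± 0.398 FPKM (SD, n = 3) was 6% of the lowest THP1 group mean. CEACAM6 fell to 0.151, 0.160 and 0.197 FPKM (difference -0.65, SE 0.11, adjusted p = 0.000194). These values lay below those at 10 ug/ml, though the difference between the doses was not called (adjusted p = 0.058 in limma). Without libraries B and C of 1 ug/ml, which leaves 1 library assumed to vary like the other groups, HSD11B1 (adjusted p = 0.000412) and CEACAM6 (adjusted p = 0.00791) kept their limma calls. With only the 2 groups compared in the fit, HSD11B1 was called (adjusted p = 0.00227), SH2D4A was not (0.139) and the other 5 genes fell below the filter.

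The other 5 calls at 1 ug/ml were not kept without those libraries, with adjusted p in limma from 0.153 (C1QA) to 0.615 (SH2D4A). The rises were CDH2 (difference 0.78, SE 0.25, adjusted p = 0.0232), SH2D4A (difference 0.61, SE 0.21, adjusted p = 0.0321) and AGK (difference 0.63, SE 0.24, adjusted p = 0.0481). The falls were VCAN (difference -0.83, SE 0.29, adjusted p = 0.0387) and C1QA (difference -0.62, SE 0.23, adjusted p = 0.0488). Each of these 5 was also lost without single libraries. These were B or C of either dose for CDH2, A of 0 ug/ml or B or C of 1 ug/ml for SH2D4A, and A or B of 0 ug/ml or B or C of 1 ug/ml for AGK. For VCAN and C1QA they were all but B of 0 ug/ml. Adjusted p over all alternatives in limma ranged over 0.00239 to 0.493 for CDH2, 0.00993 to 0.615 for SH2D4A, 0.00929 to 0.415 for AGK, 0.003 to 0.186 for VCAN and 0.00756 to 0.164 for C1QA. With libraries B and C left out, the differences of the 3 rises shrank to 0.412, 0.370 and 0.231 for AGK, CDH2 and SH2D4A.

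Between the 2 doses in B11, no gene of the 36 was called higher with limma at 10 than at 1 ug/ml and 2, both among the 23 genes, were called lower, beside 5.69% and 7.12% of all genes. At an unadjusted p under 0.05, 7 of the 36 differed in either direction. No share of all genes at that threshold is given, so nothing is read from this count. PLEKHO1 was at 5.54, 7.78 and 6.18 FPKM at 1 ug/ml and 1.69, 2.11 and 0.880 at 10 ug/ml (difference -1.57, SE 0.23, adjusted p = 0.000358). HSD11B1 was at 2.67, 2.64 and 1.96 and 1.10, 0.524 and 0.771 FPKM (difference -0.93, SE 0.18, adjusted p = 0.00307), so its highest level in B11 was at the lower dose. Neither gene overlapped between the doses, and both kept the call in all 15 alternatives. SPP1 showed a difference of -1.32 (SE 0.53, adjusted p = 0.126), with 1.06, 3.98 and 6.41 against 1.46, 0.355 and 0.478 FPKM, and was not called.

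**Figure D4:**
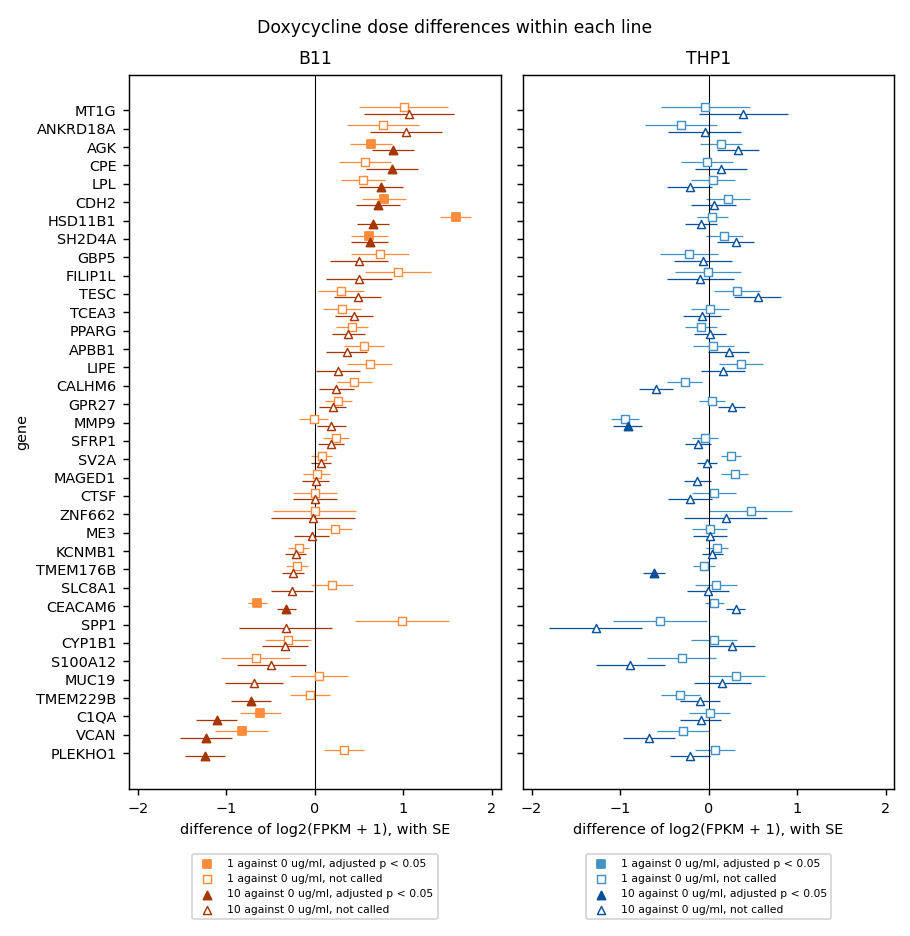
Differences of log2(FPKM + 1) with SE (x axis) for 1 against 0 ug/ml (squares) and 10 against 0 ug/ml (triangles) in B11 (left) and THP1 (right), for the 36 genes (y axis, ordered by the B11 difference at 10 ug/ml); filled symbols passed an adjusted p under 0.05. In B11 the filled points run from PLEKHO1 at -1.24 to HSD11B1 at 1.59, and in THP1 they are MMP9 at -0.91 and TMEM176B at -0.61.

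In THP1, into which no transgene had been put, no gene of the list rose at 10 against 0 ug/ml and 2 fell, beside 0.0968% and 0.923% of all genes tested. In limma, 7 of the 36 had an unadjusted p under 0.05, again with no share of all genes to set beside this count. MMP9 was at 29.8, 33.7 and 31.1 FPKM untreated, 17.9, 15.8 and 14.2 at 1 ug/ml and 16.7, 17.4 and 14.7 at 10 ug/ml. All 6 dosed libraries lay below the 3 untreated ones, with a difference of -0.91 (SE 0.16, adjusted p = 0.0132) at the higher dose. At the lower dose the difference was -0.94 (SE 0.16, adjusted p = 0.0821) and was not called. TMEM176B was at 22.1, 25.6 and 26.5 FPKM untreated and 16.8, 15.7 and 14.8 at 10 ug/ml (difference -0.61, SE 0.13, adjusted p = 0.0313), again without overlap, and at 26, 25.3 and 20.3 at 1 ug/ml. The MMP9 call was lost without library B or C of 0 ug/ml or C of 10 ug/ml (adjusted p up to 0.0719), and the TMEM176B call was kept without only 1 of the 6 libraries, A of 0 ug/ml (up to 0.152, both limma). With a pseudocount of 0.1 neither was called (adjusted p = 0.454 and 0.447).

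SPP1 in THP1 was at 140.3, 161 and 121 FPKM untreated, 111, 104 and 74.8 at 1 ug/ml and 46.5, 77.8 and 51.5 at 10 ug/ml. The highest dose did not overlap the untreated plates, but the difference was not called (difference -1.28, SE 0.53, adjusted p = 0.398). CALHM6 (difference -0.59, SE 0.20, adjusted p = 0.235) and S100A12 (difference -0.88, SE 0.39, adjusted p = 0.433) likewise did not pass the test. At 1 against 0 ug/ml in THP1 no gene of the list was called in either direction with limma, beside 0.0057% of all genes in each direction. In that comparison 2 of the 36 had an unadjusted p under 0.05 in limma, also without a share of all genes. Median differences over the 36 genes were -0.03 at 10 ug/ml and 0.04 at 1 ug/ml, and 0 and 0.01 over all genes.

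The response to 10 ug/ml in B11 was set against that in THP1 by an interaction term in the same limma fit. By this test 3 genes of the list had a higher value in B11 and 3 a lower one, beside 16% and 13.8% of all genes tested. Over the 23 genes that reached 1 FPKM in a B11 group, 1 was higher (HSD11B1) and 2 were lower (PLEKHO1 and C1QA). For 2 of the 3 higher genes the test says nothing of a response in B11. MMP9 had an untreated B11 mean of 0.27 on the log2(FPKM + 1) scale, so it could not have fallen in B11 by the 0.91 it fell in THP1. CALHM6 was at 0 in untreated B11 and could not fall at all, against a THP1 difference of -0.59. Their differences of responses, 1.10 and 0.84, were bounded from below in this way. The difference of responses was 0.74 (SE 0.25, adjusted p = 0.0386) for HSD11B1, which rose in B11 and was at 36, 46.6 and 45.9 FPKM untreated and 45.2, 41.5 and 34.4 at 10 ug/ml in THP1. The lower responses were those of PLEKHO1 (difference -1.03, SE 0.32, adjusted p = 0.0246), C1QA (difference -1.02, SE 0.33, adjusted p = 0.028) and CEACAM6 (difference -0.63, SE 0.15, adjusted p = 0.00549). CEACAM6 fell in B11, with a THP1 difference of 0.31 (SE 0.11, adjusted p = 0.273) that was not called, at 17.7, 19.96 and 17.7 against 22.2, 24.2 and 22.7 FPKM. CEACAM6 was tested because of its THP1 level, and no B11 library of it exceeded 0.903 FPKM.

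The CEACAM6 difference of responses kept its call in all 20 alternatives, in limma. Its B11 libraries all stayed under 1 FPKM, and the fit pools the spread of both lines. The kept call is therefore no measure of how firm a response in B11 was. The differences of the other 3, PLEKHO1, C1QA and HSD11B1, were lost without some single libraries. For PLEKHO1 these were B of THP1 or C of B11 at 10 ug/ml (adjusted p up to 0.0646). For C1QA they were C of THP1 or A or C of B11 at 0 ug/ml and A or B of THP1 at 10 ug/ml (up to 0.0753). For HSD11B1 they were B or C of either line at 0 ug/ml, and B or C of THP1 or A or C of B11 at 10 ug/ml (up to 0.0961, all limma). With only the 4 groups compared in the fit, CEACAM6 kept its call and the other 3 had adjusted p from 0.0504 to 0.0704.

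By position the genes were scattered. They lay on 17 of 23 chromosomes, with 7 on chromosome 1 (19.4%, against 10.9% of expressed genes), 4 on chromosome 3, and 3 each on chromosomes 8 and 11. No 2 of them were adjacent in the order of protein-coding genes. There were 4 pairs that lay within 1 Mb: PLEKHO1 and SV2A on chromosome 1 (231 kb apart with 4 genes between), LPL and SH2D4A on chromosome 8 (505.5 kb, 2 genes), CEACAM6 and LIPE on chromosome 19 (629 kb, 23 genes) and C1QA and TCEA3 on chromosome 1 (741 kb, 10 genes). The nearest genes at 5 FPKM or more on each side of the 36 were 71 in number. None of the 71 was on the list, and their median ratio of the B11 mean to the THP1 mean over 9 libraries each was 0.914, against 0.980 for the 9017 expressed genes.

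Some close neighbours were nevertheless low in B11. Of 123 other protein-coding genes within 3 positions of a listed gene and at 1 FPKM or more in THP1, 11 (8.94%) had a B11 mean under 0.25 of the THP1 mean, against 1.98% of 11933 such genes outside the list. This window was chosen after the values had been seen and carries no test. The 11 were S100A9 and S100A8 beside S100A12, TMEM176A, GIMAP5 and KCNH2 near TMEM176B, C1QC beside C1QA, CNTN1 beside MUC19, DSC3 beside CDH2, EIF4E3 beside GPR27, CAVIN3 near APBB1 and FAM198A beside ZNF662. S100A9 was the most abundant of them, with means over 9 libraries of 772 FPKM in THP1 and 73.4 in B11. TMEM176A averaged 5.45, 3.17 and 5.03 FPKM in THP1 and 1.14, 0.0460 and 0 in B11 at 0, 1 and 10 ug/ml. CNTN1 averaged 1.19, 1.44 and 0.942 FPKM in THP1 and was listed at 0 in every B11 group. On chromosome 9, ANKRD18A lay beside IGFBPL1 (10.7, 10.3 and 9.01 FPKM in THP1 and 1.12, 3.90 and 4.46 in B11) and the non-coding genes FAM201A and AL390726.5. FAM201A averaged 6.70, 7.68 and 7.53 FPKM in THP1 and 0.184, 0.303 and 0.374 in B11, and AL390726.5 7.11, 8.48 and 7.18 FPKM in THP1 and 0.701, 0.864 and 0.287 in B11. The 2 non-coding genes also met the rule apart from their class.

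**Figure D5:**
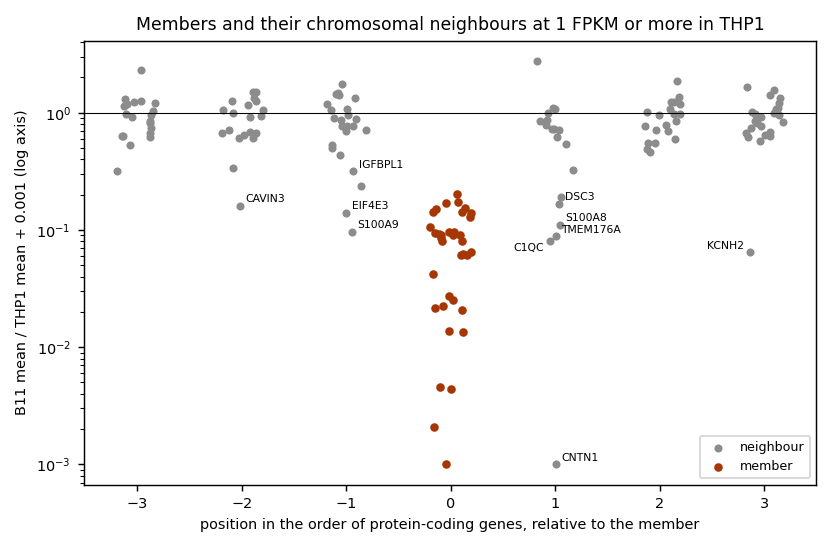
Ratio of the B11 mean to the THP1 mean over 9 libraries each, plus 0.001 (y axis, log scale), for the 36 genes (red, at 0) and for other protein-coding genes at 1 FPKM or more in THP1 (grey), by position in the gene order relative to the listed gene (x axis). Most grey points lie near 1, and some of the lower ones carry names, down to CNTN1 at a ratio of 0. FAM198A (0.189) and GIMAP5 (0.236) are not named.

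Overlap with genes on the other strand limits what some values mean, because the sources used here do not say whether the libraries keep strand. GENCODE 29 annotates such an overlap for 24 of the 36 genes, and for 11 of them the overlapping gene reached a mean of 1 FPKM in at least 1 line. FILIP1L overlaps CMSS1, which averaged 35.7 FPKM over 9 THP1 libraries and 25.2 over 9 B11 libraries. For 7 of the 11 the overlapping gene had a B11 mean below 0.5 of its THP1 mean. These were VCAN (VCAN-AS1, 3.32 and 0.17 FPKM over THP1 and B11), SLC8A1 (SLC8A1-AS1, 4.01 and 0.298), ANKRD18A (FAM201A, 7.30 and 0.287), TMEM176B (TMEM176A, 4.55 and 0.397), GPR27 (EIF4E3, 4.42 and 0.616), TMEM229B (PLEKHH1, 5.56 and 1.80) and CYP1B1 (CYP1B1-AS1, 1.09 and 0.389). In the stretches that these pairs share, the signal of the 2 strands cannot be told apart. Such a stretch can be short: ANKRD18A ends at position 38620660 and FAM201A starts at 38620474. No share of all expressed genes is set beside the counts of 24, 11 and 7, so they are not read as a trait of the list. For HSD11B1 the overlapping antisense gene AL031316.1 was not low, at 3.07 FPKM in THP1 and 5.48 in B11. Of the 36 genes, 12 had no overlap on the other strand.

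The marker lists of the line's cell type overlapped the 36 genes in 1 gene, where 0.399% of the 9017 expressed genes were on the list. Of the 20 monocyte markers at 5 FPKM or more in THP1, VCAN was on the list and 3 (VCAN, S100A8 and S100A9) had a highest B11 mean of at most 0.5 of the lowest THP1 mean. The median ratio of highest B11 to lowest THP1 mean over the 20 was 2.02, against 1.27 for all 9017 expressed genes, and untreated B11 carried it. Set against THP1 at the same dose, the median B11 level of the 20 was 1.22 of the THP1 level at 0 ug/ml, 0.801 at 1 ug/ml and 0.806 at 10 ug/ml, and 8 of the 20 were at 0.5 or less at 10 ug/ml. For 11 granule genes these medians were 1.83, 0.815 and 0.817, and for 5 class II antigen-presentation genes 1.93, 1.09 and 1.38. In B11 at 10 against 0 ug/ml, 15 of 24 tested monocyte markers, 9 of 12 granule genes and 7 of 10 class II genes fell with limma at an adjusted p under 0.05, beside 21.3% of all genes. CD14, a coreceptor for bacterial lipopolysaccharide, averaged 11.3, 8.84 and 7.33 FPKM in THP1 and 0.841, 6.03 and 0.976 in B11 at 0, 1 and 10 ug/ml. CYBB, a subunit of the phagocyte oxidase, averaged 16.2, 15.4 and 9.89 FPKM in THP1 and 8.61, 7.08 and 0.838 in B11. Both were far below THP1 at 10 ug/ml but missed the rule at 1 ug/ml or untreated. LYZ, lysozyme, averaged 731, 771 and 659 FPKM in THP1 and 2781, 448 and 294 in B11 at 0, 1 and 10 ug/ml. CD68, a lysosomal protein of macrophages, averaged 308, 286 and 227 FPKM in THP1 and 1399.9, 587 and 504 in B11.

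None of 8 targets of MAPK signalling at 5 FPKM or more in THP1, of 20 cell-cycle genes or of 18 interferon-response genes was on the list. Only 0.399% of the 9017 expressed genes were on it, so an absence from sets this small says little. In B11 at 10 against 0 ug/ml, 16 of 16 tested MAPK genes and 20 of 20 cell-cycle genes rose with limma at an adjusted p under 0.05, while 6 of the 36 listed genes did (background 21.6%). The difference between those shares was not tested.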

How the data were processed

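Total RNA of 18 plates was sequenced, 9 of THP1 and 9 of B11. Per the submitters' processing notes, the authors aligned reads with HISAT2 to GRCh38 and made values with Cuffnorm. The deposited table gives 1 FPKM value per Ensembl ID and library, 60658 IDs in all. Its header names no unit, so FPKM rests on the tool and the values. The sources used here give no versions, annotation, strandedness or scaling option. Every column matched 1 sample by its title, and the titles give the groups.

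GENCODE 29 named 57047 IDs. Values under 0.001 FPKM were treated as 0 when levels were described. Doses were compared with limma 3.58.1 in R 4.3.3 on log2(FPKM + 1), for 17555 genes at 1 FPKM or more in at least 3 libraries, with 6 group means in 1 fit, an intensity trend and 12 residual degrees of freedom. P-values were adjusted by Benjamini-Hochberg over all genes within each of 6 comparisons, and the fit was tested on simulated data. Depth limits the precision of low values, and was estimated, not counted, at 10.3 to 14.7 M fragments.

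The genes, lists and tests were chosen with earlier results of these data known. Genes were named by rule: NRAS, the 12 with the highest lowest THP1 mean, the 8 with the smallest ratio, 3 on either side of each threshold, those called, those near another, and further ones by role. Roles, related genes, motifs and the printed windows were chosen after values or sequences had been seen. Alternatives covered pseudocount, filter, scaling, trend, libraries in the fit, replicate letter, thresholds and leaving out each library. A fit without 2 libraries and a restriction to genes without other-strand overlap were added after seeing the data.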

Additional observations from a re-analysis of the deposited data

Results flagged for a closer look

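For 6 of the 36 genes the interaction test in limma, which sets the change from 0 to 10 ug/ml doxycycline in B11 against that in THP1, passed its threshold. For 2 of them it says nothing of a response in B11: MMP9 (difference of responses 1.10, adjusted p = 0.002) and CALHM6 (0.84, adjusted p = 0.0335) lay so near 0 in untreated B11 that they could not have fallen there by as much as their THP1 differences. The difference of responses on the log2(FPKM + 1) scale, B11 minus THP1, was 0.74 for HSD11B1 (adjusted p = 0.0386). It was -1.03 for PLEKHO1 (adjusted p = 0.0246), -1.02 for C1QA (adjusted p = 0.028) and -0.63 for CEACAM6 (adjusted p = 0.00549). Of all genes tested, 16% had a higher and 13.8% a lower response in B11 by the same test. CEACAM6 had no B11 library at 1 FPKM or more. Both lines were dosed alike, and PLEKHO1, C1QA and CEACAM6 fell in B11 with THP1 differences of -0.21, -0.09 and 0.31 that were not called.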

How the results depend on the processing

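The number of genes meeting the rule followed its thresholds: 66 with a level of 2 FPKM, 17 with a level of 10 FPKM, 17 with a ratio of 0.125, 122 with a ratio of 0.5, and 12 without other-strand overlap, against 36. Leaving out 1 library gave 33 to 38 genes. Median-of-ratios and TPM scaling gave 36 genes each, 35 and 33 of them shared, and moved the median of all genes by less than 0.06. In B11 at 10 against 0 ug/ml, TPM scaling called 4178 higher and 3187 lower among all genes, against 3784 and 3736.

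For genes called in B11 at 10 against 0 ug/ml (6 higher, 5 lower), a pseudocount of 0.1 gave 11 higher, and fitting only the groups compared gave 0 and 1; leaving out 1 library gave 3 to 6 and 3 to 5. At 1 against 0 ug/ml (4 and 3), the counts were 13 higher with pseudocount 0.1, 2 and 1 with no filter, 1 and 0 in the groups compared, and 1 lower without libraries B and C of 1 ug/ml; leaving out 1 library gave 2 to 6 and 1 to 4. At 10 against 1 ug/ml (0 and 2), pseudocount 0.1 gave 1 and 4, no intensity trend 1 higher, and leaving out 1 library 0 and 2 to 3. In THP1 at 10 ug/ml (0 and 2), 0 were lower with pseudocount 0.1, 1 with a filter at 5 FPKM, 1 in the groups compared, and 0 to 2 without 1 library; at 1 ug/ml, no intensity trend gave 1 lower. For the difference of responses (3 and 3, with MMP9 and CALHM6 bounded by the floor in B11), no filter gave 1 higher, the groups compared 1 and 1, and leaving out 1 library 1 to 5 and 1 to 4. Fitting fewer groups leaves fewer residual degrees of freedom, and genes near 0 drop below its filter; the cause of the other shifts was not tested. Of 28 calls of a gene in a comparison, 10 held in all alternatives that gave a value, 18 were lost in some and 0 reversed.

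The letters A, B and C do not pair plates: deviations of same-lettered plates correlated at -0.061 to 0.077. A fit with the replicate block gave 2 higher at 1 against 0 ug/ml in B11 and 1 lower in THP1 at 10 ug/ml, and moved no other count by over 1.5 times.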
